A study of Mus musculus with 10 samples.

Results

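The genes described here are the cytosolic sulfotransferases (Sult), the UDP-glucuronosyltransferases of families Ugt1, Ugt2 and Ugt3 (Ugt) and the cytosolic and kappa glutathione S-transferases (Gst), the enzymes of phase II conjugation. They were taken by symbol: every gene listed in both deposited tables whose symbol starts with Sult, with Ugt1, Ugt2 or Ugt3, or with Gst followed by one of the class letters a, k, m, o, p, t or z and a digit. This rule, which uses no measured value, gave 59 of the 23364 genes: 18 Sult, 20 Ugt and 21 Gst genes. RNA of epithelial crypts, shaken out of the mouse distal colon in EDTA, was sequenced from 3 untreated libraries (control), 4 libraries after dextran sulfate sodium (DSS), a drinking-water irritant that inflames the colon, and 3 libraries after azoxymethane and DSS (AOM+DSS). Azoxymethane is a carcinogen that alkylates DNA, and the design text calls that group cancer brought on by inflammation together with AOM. The sources used here do not give strain, age, sex, doses, times or the share of tumour in an AOM+DSS preparation. No label ties a library to an animal, so the p-values rest on the spread between these libraries, which may be technical. In the authors' test that spread is pooled over all 3 groups, or taken from a curve across genes where that is larger.

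Phase II enzymes attach a polar group to drugs, hormones, bile acids, dietary compounds and products of lipid oxidation, so that the product dissolves in water and can be exported. Sulfotransferases transfer sulfate from the activated donor PAPS, glucuronosyltransferases transfer glucuronic acid from UDP-glucuronic acid in the endoplasmic reticulum, and glutathione S-transferases couple electrophiles to the tripeptide glutathione. In the colon these enzymes sit mainly in the epithelium, where they act on compounds from food and from the bacteria of the lumen, and several are known targets of the xenobiotic receptors AhR, PXR and CAR, of PPAR-alpha or of the oxidant sensor NRF2.

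The deposited tables hold group means of normalized reads, that is read counts divided by a size factor that corrects each library for its depth. Whole reads per library were recovered from those means for 23003 genes, among them all 59 members. Libraries cannot be tied to the numbers in the labels, so they are lettered from the deepest down within each group. Recovered reads ran from 9378237 in DSS library d to 21606144 in AOM+DSS library a. The DSS libraries fell into 2 pairs: across 11541 genes (which are not independent replicates) the correlation of log2 reads was 0.967 between a and b, 0.989 between c and d, and 0.920 to 0.946 across the pairs. Values as low were not confined to DSS. In the control the correlation was 0.988 between a and c, 0.963 between a and b and 0.944 between b and c. In AOM+DSS it was 0.973 between a and b, 0.962 between a and c and 0.926 between b and c. The 7 pan-epithelial markers, among them Epcam and Krt8, summed to 203510.0 normalized reads in the authors' control mean, 227010.0 in their DSS mean and 201426 in their AOM+DSS mean, and none passed the authors' test in either comparison.

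Of the 59 members, 28 had a mean of at least 50 normalized reads, 20 had reads but stayed under that mean, and 11 had no read in any library. The 28 expressed members were at 50 or more in every group, with a lowest group mean of 51.7 for Ugt1a1 in AOM+DSS. Gsto2 had the highest group mean among the 20 low members, 37.4 in the control, and 12 of the 20 were under 3 in every group. The 11 silent members were Sult2a1 to Sult2a7, Sult3a1, Ugt1a10, Ugt2b37 and Ugt3a1. A count of 0 allows up to 3 reads per library, so these genes were below detection at this depth. The Sult2a genes, liver enzymes for bile acids and steroids, thus gave no read, although all 7 are listed.

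Gst genes led the order of levels in the untreated crypts. Per kilobase of exon, the highest control levels were those of Gstm1 (5773 normalized reads per kb), Gsto1 (4070.3), Gstp1 (3441), Gstp2 (3204) and Sult1a1 (2880.5). Ugt2b34 followed with 1955, ahead of Gstm2 with 1826 and Sult1b1 with 1416, and the lowest of the 28 was Ugt1a1 with 42.6. In AOM+DSS the per-kb order was Gsto1 (3510.5), Gstp1 (2702), Gstp2 (2554) and then Gstm1 (2049), so the gene with the highest control level came the fourth. The same 3 genes were ahead of Gstm1 in DSS, where Gsto1 stood at 3926 and Gstm1 at 3096 normalized reads per kb. These levels rest on the exon length of each gene and on how the authors' unstated counting treated reads shared by near-copies.

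**Figure D1:**
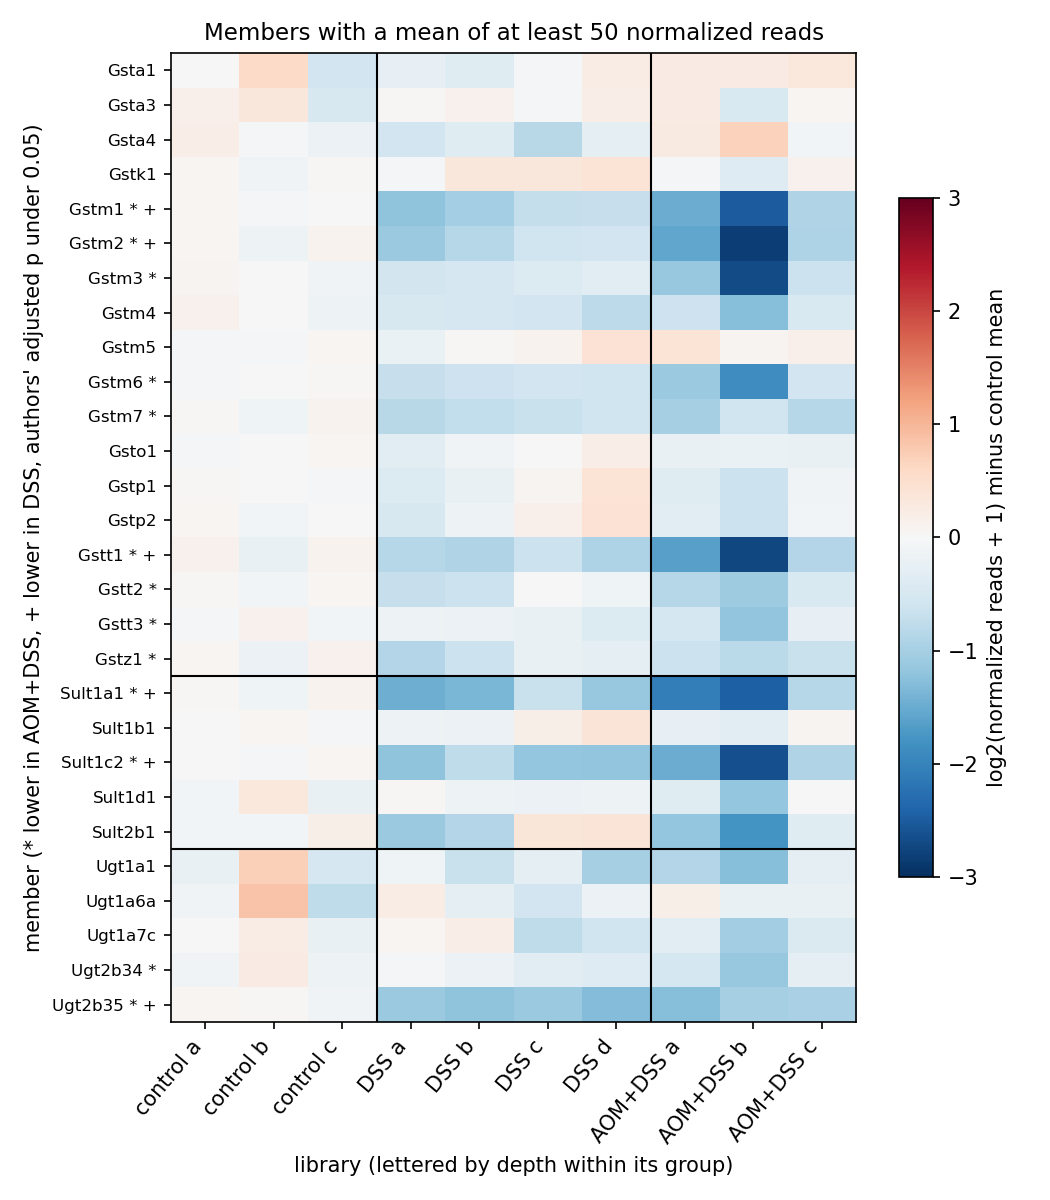
Level of the 28 members with a mean of at least 50 normalized reads (rows) in each of the 10 libraries (columns), as log2(normalized reads + 1) minus the control mean of that gene. Blue is below and red above the control mean. An asterisk marks genes lower in AOM+DSS and a plus sign genes lower in DSS by the authors' adjusted p. The darkest blue cells lie in AOM+DSS library b, in the rows of Gstm1, Gstm2, Gstm3, Gstt1, Sult1a1 and Sult1c2.

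Conjugating enzymes that passed the test in DSS crypts were all lower than in the control. By the authors' adjusted p under 0.05, 6 of 47 tested members fell and 0 rose, while 41 did not pass. The 6 were 3 glutathione S-transferases (Gstm1, Gstm2 and Gstt1), 2 sulfotransferases (Sult1a1 and Sult1c2) and 1 glucuronosyltransferase (Ugt2b35). Over all genes tested in that table, 1.78% were lower and 2.61% were higher, against 12.8% of the members lower. The median log2 fold change in the authors' deposited table was -0.33 over the 28 expressed members, 23 of them negative, against 0.04 over the 11896 genes with a mean of at least 50. RNA of bulk crypts was measured, so fewer cells of an expressing type and less RNA per cell cannot be told apart here or below.

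By the authors' adjusted p, more members were called lower in AOM+DSS than in DSS, as were more of all genes, and again no member was called higher. By the same test 13 of 47 tested members (27.7%) fell, 0 rose and 34 did not pass, beside 3.35% of all genes lower and 5.54% higher. They were 9 Gst genes (Gstm1, Gstm2, Gstm3, Gstm6, Gstm7, Gstt1, Gstt2, Gstt3 and Gstz1), 2 Sult genes (Sult1a1 and Sult1c2) and 2 Ugt genes (Ugt2b34 and Ugt2b35). All 6 that fell in DSS were among them, but the comparisons share their 3 control libraries, so this overlap is no separate evidence. The authors' median log2 fold change was -0.67 over the 28 members (25 negative) and 0.00 over the 11896 genes.

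Class by class, the mu and theta genes held 3 of the 6 calls in DSS and 8 of the 13 in AOM+DSS. Of 7 Gstm genes 2 fell in DSS and 5 in AOM+DSS, and of 4 Gstt genes 1 and 3. No alpha (4 genes), kappa (1), omega (2) or pi (2) gene passed in either comparison. Of the 10 tested Sult genes 2 fell in each comparison, and of 16 tested Ugt genes 1 fell in DSS and 2 in AOM+DSS. Whether the classes differ from each other was not tested.

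**Figure D2:**
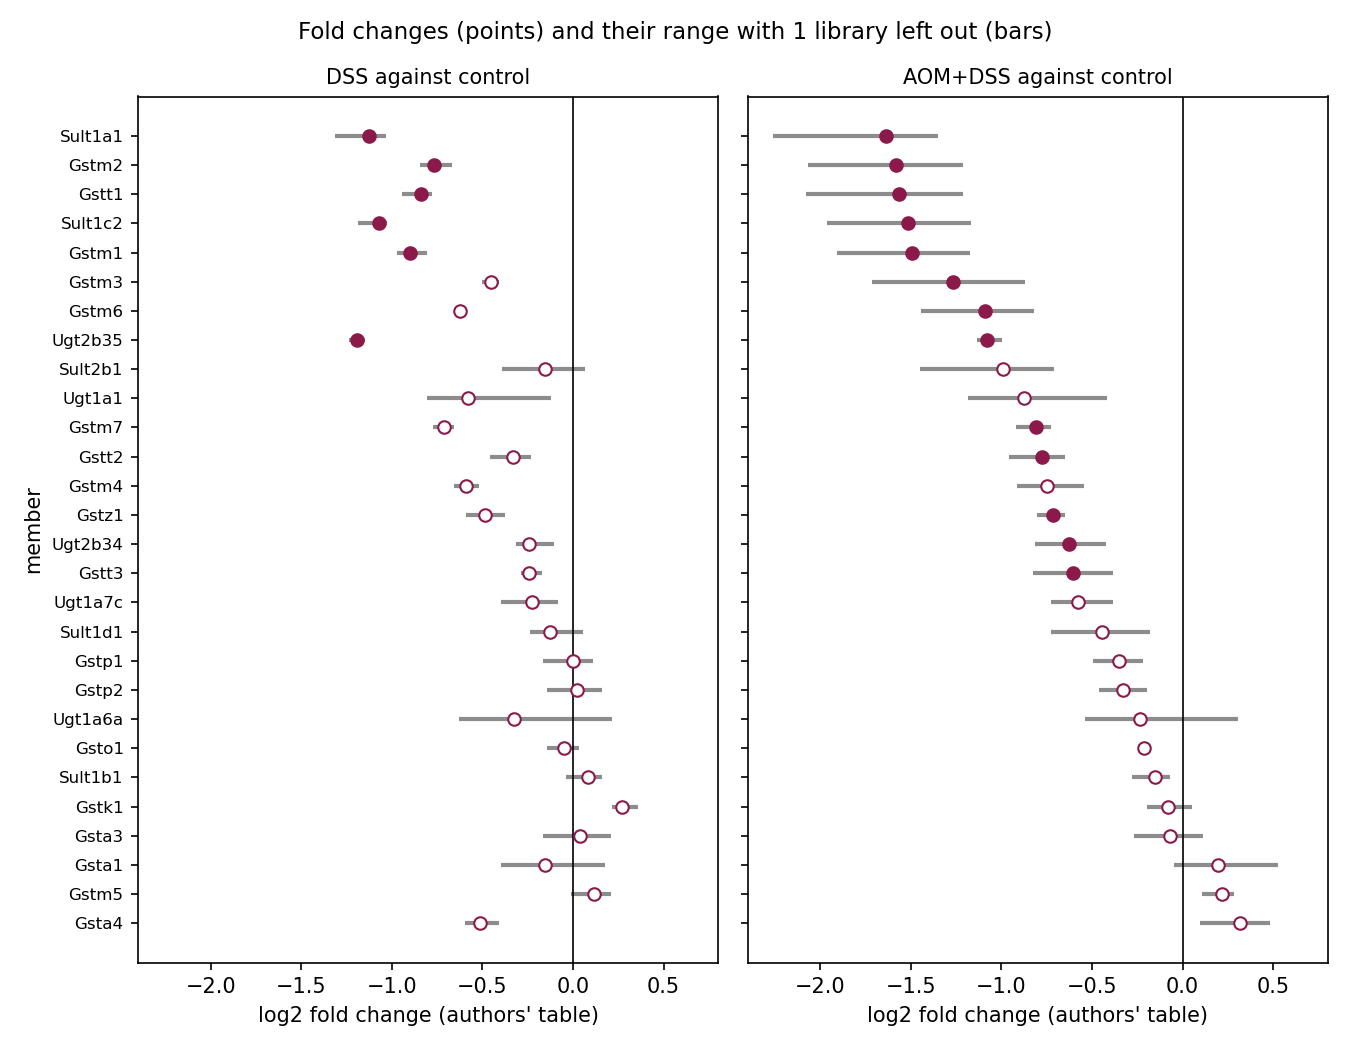
Log2 fold change from the authors' deposited tables (horizontal axis) of the 28 members with a mean of at least 50 normalized reads, for DSS against control and AOM+DSS against control. Filled points had an authors' adjusted p under 0.05 and open points did not. Bars span the values obtained when each recovered library was left out in turn. Every filled point lies left of 0, from -0.61 (Gstt3) to -1.64 (Sult1a1) in AOM+DSS.

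Mu-class enzymes conjugate aromatic electrophiles and epoxides, and Gstm1 was the most abundant of them. Gstm1 stood at 8881, 8196 and 8432 normalized reads in control libraries a to c, 3658, 4178, 5155 and 5253 in DSS a to d, and 3015, 1516 and 4524 in AOM+DSS a to c. No treated library reached the control range, and AOM+DSS b was the lowest of all. The group means were 8503 ± 348 (SD, n = 3), 4561 ± 773 (SD, n = 4) and 3018 ± 1504 (SD, n = 3). In the authors' deposited table Gstm1 fell by 0.90 on the log2 scale in DSS (adjusted p = 0.000233) and by 1.49 in AOM+DSS (adjusted p = 7.2e-10).

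Gstm2, a neighbour of Gstm1 in the same gene cluster, had 3175, 2743 and 3282 normalized reads in the control, 1423, 1701, 2018 and 2059.8 in DSS, and 1037, 428 and 1613 in AOM+DSS. The groups were apart in the same way, with AOM+DSS b again lowest. Its means were 3066 ± 286 (SD, n = 3), 1800.5 ± 298 (SD, n = 4) and 1026 ± 592 (SD, n = 3), and the authors' deposited table gives log2 fold changes of -0.77 (adjusted p = 0.0127) and -1.58 (adjusted p = 1.19e-08).

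Gstm3 passed in AOM+DSS, where its libraries held 639, 218 and 897 normalized reads against 1486, 1422 and 1308 in the control. DSS lay between, at 955, 994, 1055 and 1104, with no library in the range of either other group. The authors' deposited table gives -1.27 (adjusted p = 1.51e-06) for AOM+DSS and -0.45 (adjusted p = 0.273) for DSS. By limma on log2(normalized reads + 1), the AOM+DSS difference of Gstm3 had an adjusted p of 0.0581.

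Gstm6 showed 574, 611 and 619.6 normalized reads in the control and 277, 165 and 404 in AOM+DSS. Its DSS libraries lay close together, at 372, 388, 404 and 399, below every control library. The authors' deposited table gives Gstm6 -1.09 (adjusted p = 0.000685) in AOM+DSS and -0.62 (adjusted p = 0.151) in DSS. Gstm7 had 457, 412 and 482 normalized reads in the control, 253, 269, 280.4 and 298 in DSS and 226, 294 and 249.7 in AOM+DSS. Here AOM+DSS b was the highest of its group, unlike for the other mu genes that fell. The authors' deposited table gives Gstm7 -0.81 (adjusted p = 0.0467) in AOM+DSS and -0.71 (adjusted p = 0.0958) in DSS.

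The other mu genes did not pass the authors' test. Gstm4 means were 446 ± 42.6, 297 ± 26.5 and 265 ± 72.5 normalized reads (SD, n = 3, 4 and 3 for control, DSS and AOM+DSS). Its AOM+DSS adjusted p in the authors' deposited table was 0.0591. By limma, Gstm4 was just under 0.05 in both, with adjusted p-values of 0.0477 in DSS and 0.0478 in AOM+DSS. Every treated library of Gstm4 lay below every control library. Gstm5, at 767 ± 28.0, 833 ± 156 and 894 ± 115 in the same order, was the only mu gene whose mean was higher in both treated groups, with adjusted p-values of 1 and 0.753 in the authors' deposited table. Gstm5 lies at one end of the cluster: in RefSeq order the neighbours are Gstm5, Gstm7, Gstm6, Gstm3, Gstm2, Gstm1 and Gstm4.

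Theta-class enzymes handle small halogenated compounds and sulfate esters. Gstt1 had 831, 654 and 821 normalized reads in the control, 419, 407, 486 and 405 in DSS and 248, 115 and 416 in AOM+DSS. Control b was the lowest control library and still above every treated one. The means were 769 ± 99.6 (SD, n = 3), 429 ± 38.2 (SD, n = 4) and 259.9 ± 151 (SD, n = 3), and the authors' deposited table gives -0.84 (adjusted p = 0.0146) and -1.56 (adjusted p = 7.93e-08).

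Gstt2 had 1381, 1273 and 1393 normalized reads in the control and 739.9, 648 and 978 in AOM+DSS. In DSS its libraries split into 840.2 and 863 (a and b) and 1341 and 1242 (c and d). Of these, c lay within the control range and d just below it. The authors' deposited table gives Gstt2 -0.77 (adjusted p = 0.00941) in AOM+DSS and -0.33 (adjusted p = 0.387) in DSS. Gstt3 had 1919, 2172 and 1853 normalized reads in the control, 1767, 1756, 1692 and 1479.7 in DSS and 1368, 865 and 1671 in AOM+DSS. AOM+DSS b stood below the other 2 libraries of its group, whose values overlapped none of the control. The authors' deposited table gives Gstt3 -0.61 (adjusted p = 0.046) in AOM+DSS and -0.24 (adjusted p = 0.823) in DSS, and by limma the AOM+DSS adjusted p was 0.079.

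Gstz1, the maleylacetoacetate isomerase of tyrosine breakdown, had 972, 824 and 1023 normalized reads in the control and 596, 534 and 586 in AOM+DSS. These 3 treated libraries lay close together, and DSS (512, 603, 807 and 760.0) overlapped them and stayed under the lowest control library. The authors' deposited table gives Gstz1 -0.72 (adjusted p = 0.0394) in AOM+DSS and -0.49 (adjusted p = 0.181) in DSS.

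**Figure D3:**
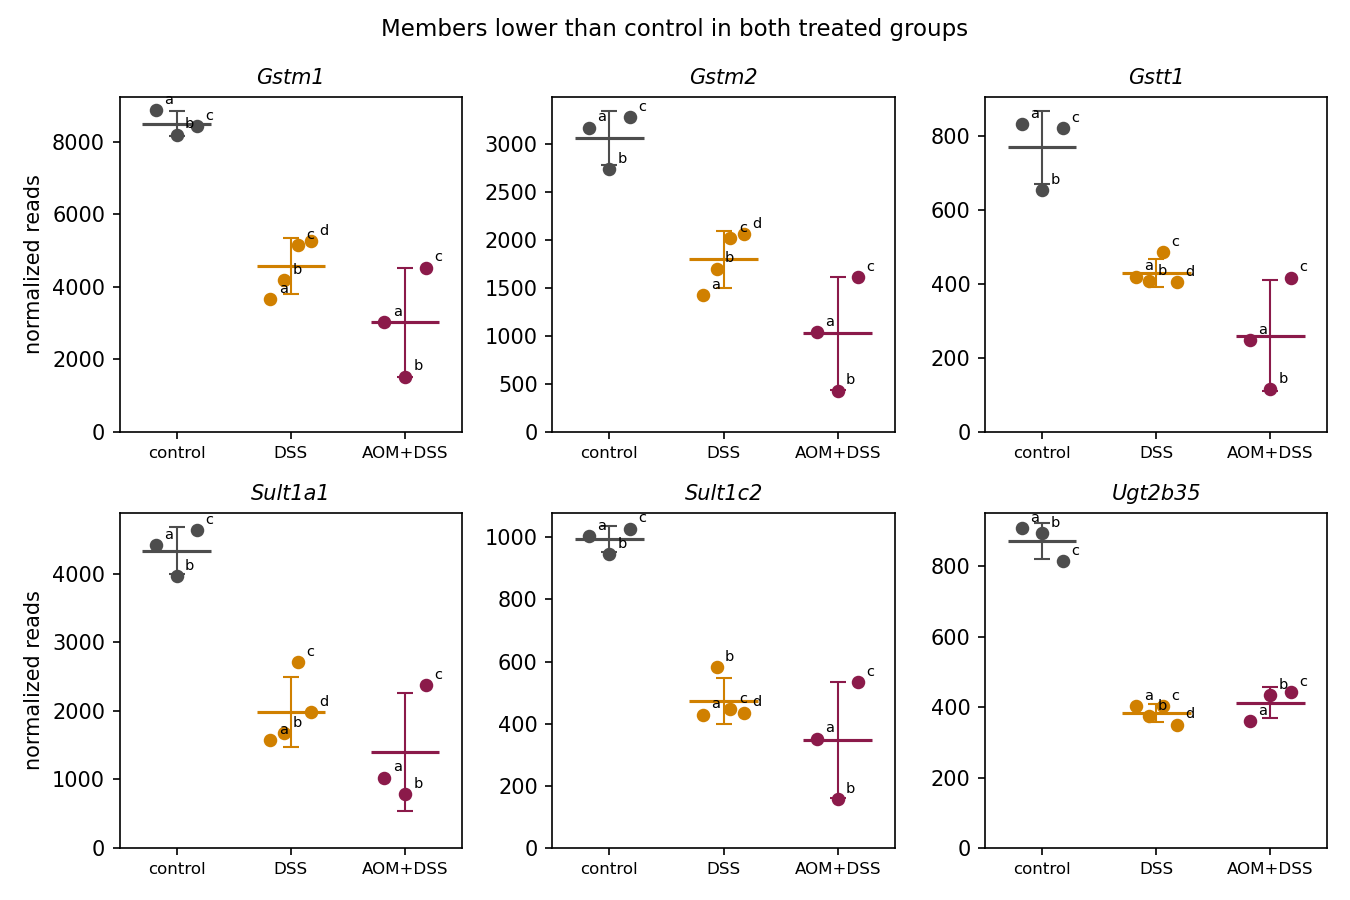
Normalized reads per library (vertical axis, from 0) of the 6 members that fell in both control comparisons. Each lettered dot is a library, the horizontal line is the group mean and the whiskers span the mean ± SD (n = 3 control, 4 DSS, 3 AOM+DSS). No dot of a treated group reaches the control dots in any panel, and the AOM+DSS dots spread widely except for Ugt2b35.

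Sult1a1, the phenol sulfotransferase, was the sulfotransferase with the highest level per kb in the control. It had 4416, 3965 and 4641 normalized reads in the control, 1571, 1680.0, 2715 and 1981 in DSS and 1025, 787 and 2379 in AOM+DSS. AOM+DSS c overlapped the DSS range, while a and b lay under it. The means were 4341 ± 344 (SD, n = 3), 1987 ± 515 (SD, n = 4) and 1397 ± 858 (SD, n = 3), and the authors' deposited table gives -1.13 (adjusted p = 0.000514) and -1.64 (adjusted p = 3.05e-07).

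Sult1c2, of a subfamily that sulfates small phenols, had 1005, 947 and 1028 normalized reads in the control, 429, 583, 446 and 436 in DSS and 352, 158 and 534 in AOM+DSS. In DSS, library b stood above 3 libraries that lay close together. The means were 994 ± 41.9 (SD, n = 3), 474 ± 73.5 (SD, n = 4) and 348 ± 188 (SD, n = 3), and the authors' deposited table gives -1.07 (adjusted p = 0.000575) and -1.51 (adjusted p = 7.52e-08).

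Sult1b1, which sulfates thyroid hormones and small phenols, and Sult1d1, which acts on catecholamines, did not pass. Sult1b1 means were 3937 ± 157, 4166 ± 802 and 3548 ± 541 normalized reads (SD, n = 3, 4 and 3), with authors' log2 fold changes of 0.08 and -0.15. Sult1d1 means were 2600.2 ± 545, 2379 ± 162 and 1911 ± 724 (SD, n = 3, 4 and 3), with -0.13 and -0.44 in the authors' deposited table. In AOM+DSS both genes overlapped the control libraries. Sult2b1, which sulfates cholesterol, had 1037, 1044 and 1248 normalized reads in the control and 495, 316 and 864 in AOM+DSS, all below the control. Its DSS libraries were 509 and 599 (a and b) but 1429 and 1456 (c and d), one pair under and one pair over every control library. The authors' deposited table gives Sult2b1 -0.99 (adjusted p = 0.212) in AOM+DSS and -0.15 (adjusted p = 0.963) in DSS.

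Ugt2b35 was the glucuronosyltransferase that fell in both comparisons. It had 909, 896 and 815 normalized reads in the control, 402, 374, 404 and 351 in DSS and 361, 433 and 443 in AOM+DSS. The treated groups overlapped each other and lay far under the control. The means were 873 ± 51.0 (SD, n = 3), 383 ± 25.4 (SD, n = 4) and 413 ± 44.6 (SD, n = 3), and the authors' deposited table gives -1.19 (adjusted p = 6.71e-05) and -1.08 (adjusted p = 0.000575).

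Ugt2b34, the most abundant glucuronosyltransferase, had 7740.4, 9971 and 7575 normalized reads in the control, 8064, 7427, 6562 and 6445 in DSS and 5792, 3799.9 and 6771 in AOM+DSS. DSS overlapped the control and AOM+DSS did not. The authors' deposited table gives Ugt2b34 -0.63 (adjusted p = 0.0246) in AOM+DSS and -0.24 (adjusted p = 0.826) in DSS, and by limma the AOM+DSS adjusted p was 0.0743.

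The Ugt1a genes, which share their last exons and differ in the first, did not pass. Ugt1a7c had means of 1597 ± 248, 1363 ± 436 and 1070.1 ± 269 normalized reads (SD, n = 3, 4 and 3). Its DSS libraries were 1658 and 1813 in a and b against 937 and 1045 in c and d. Every AOM+DSS library of Ugt1a7c lay below every control library. Ugt1a6a, which conjugates planar phenols, had means of 232 ± 131, 185 ± 43.2 and 197 ± 33.8. Ugt1a1, the bilirubin enzyme, had 94.7 ± 45.1, 63.2 ± 17.0 and 51.7 ± 18.5. Control library b was the highest control for all 3 Ugt1a genes, with 146 normalized reads of Ugt1a1 against 75.3 and 62.5. Reads of the shared exons cannot be assigned to a single Ugt1a gene.

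No alpha, kappa, omega or pi gene passed, among them 3 of the most abundant members. Gsto1, an omega enzyme that reduces dehydroascorbate, had 8234 ± 339.5, 7942 ± 1201 and 7102 ± 65.7 normalized reads (SD, n = 3, 4 and 3). Gstp1 had 5326 ± 133, 5317 ± 1335 and 4182 ± 791, and Gstp2 had 3566 ± 156, 3624 ± 963 and 2842 ± 531. The 3 genes did not pass in the authors' deposited table, with log2 values between -0.35 (Gstp1) and -0.21 (Gsto1) in AOM+DSS. For each of the 3, every AOM+DSS library still lay below every control library, while DSS overlapped the control. Gstk1, an enzyme of mitochondria and peroxisomes, had means of 923 ± 62.9, 1114 ± 145 and 874 ± 153. Among the alpha genes Gsta3 had 886 ± 241, 911 ± 71.3 and 846 ± 201 and Gsta1 had 539 ± 209, 483 ± 88.0 and 616 ± 18.5.

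Gsta4, which conjugates the lipid oxidation product 4-hydroxynonenal, had its mean on opposite sides of the control in the treated groups. It had 1163, 984 and 899 normalized reads in the control, 679.8, 781, 562 and 819 in DSS and 1211, 1625 and 957 in AOM+DSS. Every DSS library lay below the control, while AOM+DSS overlapped it. Neither difference passed: the authors' deposited table gives -0.52 (adjusted p = 0.299) and 0.32 (adjusted p = 0.578).

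The direction was also counted over libraries, with no p-value. Among the 28 members, 13 (46.4%) had every DSS library below every control library and 0 had every one above, beside 11.4% below and 13.3% above over 11541 genes with a mean of at least 50. For AOM+DSS, 19 (67.9%) lay entirely below the control and 1 (3.57%), Gstm5, entirely above, beside 22.0% and 22.6%. By limma on the recovered reads, 10 members were lower and 0 higher in DSS, beside 2.55% and 3.29% of all genes. Limma used the libraries of the compared groups only, unlike the authors' test. The 10 were the 6 above with Gstm3, Gstm4, Gstm6 and Gstm7. For AOM+DSS limma gave 11 members lower and 1 higher, beside 6.44% and 10.8% of all genes. The higher member was Sult4a1, a brain sulfotransferase with 2.63 ± 1.43 normalized reads in the control and 20.5 ± 8.02 in AOM+DSS (SD, n = 3 each), with a limma adjusted p of 0.0182 and 0.123 in the authors' deposited table.

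Leaving out single libraries changed some calls. The authors' test was recomputed from the recovered reads. In DSS, 4 of the 6 calls (Gstm1, Sult1a1, Sult1c2 and Ugt2b35) were kept with any of the 7 control and DSS libraries left out. The AOM+DSS libraries, which also enter the pooled spread, were not left out there. Gstm2 and Gstt1 no longer passed without control a (adjusted p = 0.188 and 0.18), control c (0.185 and 0.157) or DSS b (0.0619 and 0.0596), and Gstm2 also not without DSS a (0.0752). With DSS libraries a and b alone, 5 of the 6 passed, all but Gstt1, and with c and d alone 2 passed, Sult1c2 and Ugt2b35. The log2 fold changes in c and d were then -0.89 for Sult1a1, -0.79 for Gstt1, -0.71 for Gstm1 and -0.59 for Gstm2, against -1.42, -0.90, -1.12 and -0.97 in a and b.

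In AOM+DSS, 7 of the 13 calls were kept with any of the 6 control and AOM+DSS libraries left out: Gstm1, Gstm2, Gstm3, Gstt1, Sult1a1, Sult1c2 and Ugt2b35. Library b was the lowest of its group for 23 of the 28 members and for 11 of the 13 that fell, and c was the highest for 20 of 28. Without b, 7 members fell. The adjusted p was then 0.0762 for Gstm6, 0.0783 for Gstm7, 0.136 for Gstt2, 0.597 for Gstt3, 0.201 for Gstz1 and 0.451 for Ugt2b34. Gstm7 lost its call with any of the 6 libraries left out, with a highest adjusted p of 0.22 without AOM+DSS a. Gstt2, Gstt3 and Gstz1 also did not pass without control a, control c or AOM+DSS a (0.0545 to 0.171), and Gstt3 and Ugt2b34 did not pass without control b (0.149 and 0.169). Gstz1 did not pass without AOM+DSS c either (0.0695).

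Between the treated groups no member differed by limma. Of 48 members tested, 0 were called lower and 0 higher, beside 0.0499% and 1.71% of all genes, and the lowest adjusted p was 0.103, for Gsta4. At an unadjusted p under 0.05, limma gave 4 members lower and 2 higher in AOM+DSS. The authors' test recomputed on these libraries called 1 member lower, Gstm3 (log2 difference -0.81, adjusted p = 0.0215), and 1 higher, Gsta4 (0.83, adjusted p = 0.0446), beside 0.0999% and 0.971% of all genes. By limma, Gstm3 differed by -1.04 ± 0.40 (log2, SE) with an adjusted p of 0.321, and Gsta4 by 0.81 ± 0.20 (log2, SE). Gstm3 was the only one of the 28 members with all AOM+DSS libraries below all DSS libraries, beside 4.55% of genes, and Gsta4 and Gsta1 had all of them above, beside 5.7%.

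The median log2 difference of AOM+DSS from DSS over the 28 members was -0.35, and 23 had the lower mean in AOM+DSS, against a median of -0.03 over 11541 genes. Sult1a1 differed by -0.64 ± 0.35 (log2, SE, limma, adjusted p = 0.502) and Gstm1 by -0.72 ± 0.32 (adjusted p = 0.406). For Ugt2b35 the difference was 0.11 ± 0.14 (adjusted p = 0.784).

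Summed over each family, the levels were lower in both treated groups. The Sult genes together had 13001 ± 229.8 normalized reads in the control, 10032 ± 1546 in DSS and 7802 ± 2530.2 in AOM+DSS (SD, n = 3, 4 and 3), which is 77.2% and 60.0% of the control. The Ugt sum went from 11303 ± 1807 to 9186 ± 1205 (81.3%) and 7234 ± 1784 (64.0%), and the Gst sum from 40836 ± 816 to 33165 ± 5204 (81.2%) and 27017 ± 4626 (66.2%). The mu class alone was at 60.3% in DSS and 41.5% in AOM+DSS, and the other Gst genes together at 93.7% and 80.8%. Libraries c and d of DSS had higher Gst sums (35293 and 39198) than a and b (27209 and 30960.1), and the lowest Gst sum of all was that of AOM+DSS b, 22252. The Ugt sums of DSS overlapped those of the control, and no Sult or Gst sum of a treated library reached the control. These sums weigh the most abundant genes most and are a description, with no test.

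**Figure D4:**
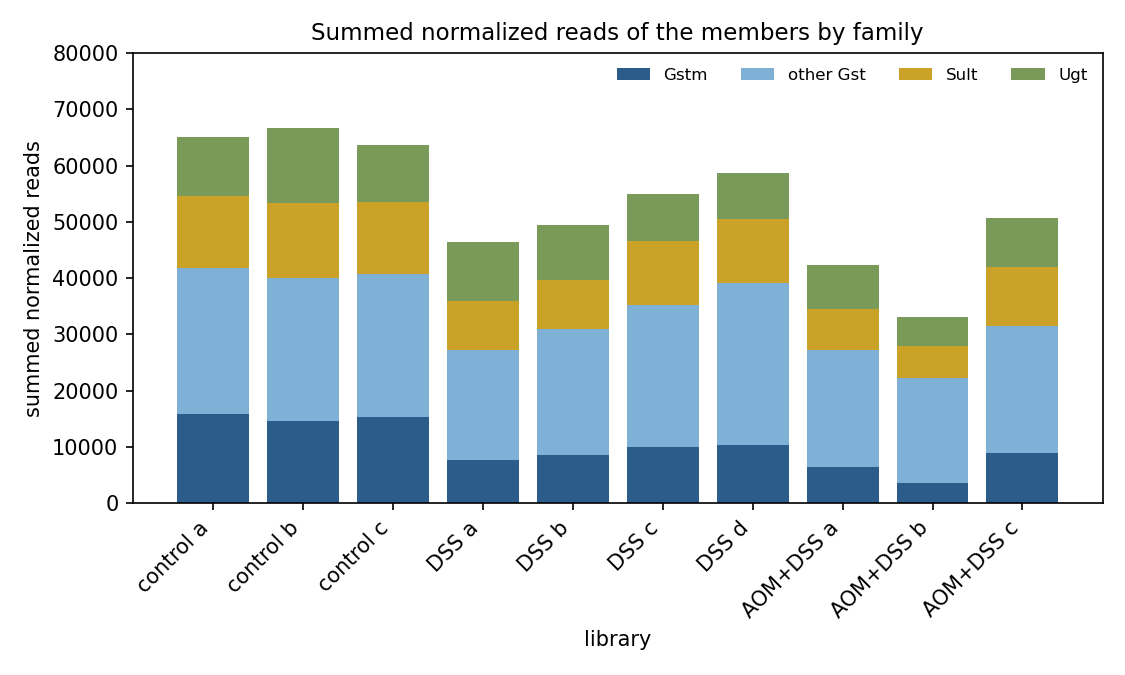
Summed normalized reads (vertical axis, from 0) of the mu-class Gst genes, the other Gst genes, the Sult genes and the Ugt genes, stacked for each of the 10 libraries. The mu-class part is between 14586 and 15809 in the control libraries, between 7652 and 10417 in DSS and between 3615 and 8857 in AOM+DSS.

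Some members share sequence, which limits how far their reads can be told apart. Of the transcript words of 50 bases, the share found in another gene's transcript was 89.7% for Gsta1, 62.3% for Gstp1, 72.6% for Gstp2 and 100% for Ugt1a6a. Among the genes that fell it was 28.8% for Gstm3, 26.0% for Gstt3, 23.2% for Gstm1, 11.5% for Gstm6, 9.36% for Gstm2 and 7.72% for Sult1a1. It was 0% for Gstm7, Gstt1 and Gstz1 and under 2% for Gstt2, Sult1c2, Ugt2b34 and Ugt2b35. The sources used here do not say how the authors counted reads with several matches, so the split among near-copies is uncertain.

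RefSeq promoter windows (GRCm38.p6) of 4 members that fell in both comparisons are shown because each holds a searched motif. Each window is 200 bases, from 250 to 51 bases before the start site, on the gene's strand, and capitals mark the match: the xenobiotic response element core GCGTG in Gstm1 (chr3:108018024-108018223, minus strand), the CDX core TTTAT in Gstm2 (chr3:107986471-107986670, minus strand), the HNF1 motif GTTAAT in Sult1a1 (chr7:126676469-126676668, minus strand) and the CDX core on the other strand, read as ATAAA, in Ugt2b35 (chr5:87000610-87000809, plus strand).
Gstm1: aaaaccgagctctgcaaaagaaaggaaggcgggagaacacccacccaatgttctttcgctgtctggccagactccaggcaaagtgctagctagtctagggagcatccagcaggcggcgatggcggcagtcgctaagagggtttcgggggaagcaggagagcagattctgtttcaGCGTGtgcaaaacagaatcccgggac
Gstm2: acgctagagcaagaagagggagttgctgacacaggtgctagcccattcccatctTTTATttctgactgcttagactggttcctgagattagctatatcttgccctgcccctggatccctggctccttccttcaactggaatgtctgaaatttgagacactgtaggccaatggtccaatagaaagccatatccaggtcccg
Sult1a1: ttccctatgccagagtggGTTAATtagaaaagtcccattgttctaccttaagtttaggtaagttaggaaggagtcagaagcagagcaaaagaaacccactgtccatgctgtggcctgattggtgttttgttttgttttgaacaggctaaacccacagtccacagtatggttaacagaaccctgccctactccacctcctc
Ugt2b35: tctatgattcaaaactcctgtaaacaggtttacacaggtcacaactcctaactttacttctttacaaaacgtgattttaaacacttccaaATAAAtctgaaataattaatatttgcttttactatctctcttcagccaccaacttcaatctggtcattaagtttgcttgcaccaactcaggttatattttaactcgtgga
The first base of the match lies at -76 from the start site in Gstm1, at -196 in Gstm2, at -232 in Sult1a1 and at -160 in Ugt2b35. On both strands of all 32851 such windows, GCGTG was found in 22.6%, TTTAT in 31.6% and GTTAAT in 5.33%. Of the 51 members with a window, 2 held GCGTG, 21 held TTTAT and 10 held GTTAAT, and of the 12 with a window that fell in AOM+DSS, 1, 4 and 1 did. The antioxidant response element TGACNNNGC was in 7.66% of all windows, in 1 member and in 0 of the 12. A match of TGACNNNGC can include the reverse of GCGTG, and the other motifs cannot lie inside one another. A match is only a description of the sequence.

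Genes around the conjugation reactions were read from 8 lists with 86 genes in the tables. In DSS 3 of the 86 were higher and 4 lower by the authors' adjusted p, and in AOM+DSS 6 were higher and 7 lower. Over all genes tested the shares were 2.61% higher and 1.78% lower in DSS and 5.54% and 3.35% in AOM+DSS. None of the 9 genes of sulfate activation and transport passed the authors' test in either comparison. The most abundant were the anion exchangers Slc26a3 (means of 17422, 12104 and 7086 normalized reads in the authors' deposited tables) and Slc26a2 (9279, 5029 and 4411). Their AOM+DSS adjusted p-values by the authors' test were 0.0602 and 0.0616. Of the 6 genes of UDP-glucuronic acid supply and cleavage, 0 passed in DSS and 2 in AOM+DSS. Ugdh, which makes UDP-glucuronic acid, fell from 6421, 6074 and 4801 normalized reads in the control to 3344, 2411 and 4882 in AOM+DSS, with libraries that overlap (authors' deposited table, -0.70, adjusted p = 0.0286). By limma, Ugdh did not pass (adjusted p = 0.0710). Gusb, the lysosomal glucuronidase that removes glucuronic acid, rose from 871, 887 and 742 to 1856, 2595 and 1263 (authors' deposited table, 1.19, adjusted p = 0.00805).

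Of 15 genes of glutathione supply and turnover, 1 was higher in DSS, and 1 was higher and 2 lower in AOM+DSS. Ggt1, the gamma-glutamyltransferase that breaks down extracellular glutathione, rose in both, from 55.0, 51.4 and 26.5 normalized reads in the control to 160.5, 231, 109 and 171 in DSS and 146, 397 and 246 in AOM+DSS. The authors' deposited table gives Ggt1 1.92 (adjusted p = 0.021) and 2.57 (adjusted p = 0.000875). Its relative Ggt6 fell in AOM+DSS by 1.00 (adjusted p = 0.000202) and Cth, which makes cysteine, by 0.69 (adjusted p = 0.0349), both from the authors' deposited table. By limma, Cth did not pass (adjusted p = 0.109).

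Of 13 membrane-bound and other glutathione enzymes, 1 was higher and 2 lower in DSS, and 2 were higher and 2 lower in AOM+DSS. Mgst1, a microsomal glutathione S-transferase outside the member families, had 3749, 3816 and 3792 normalized reads in the control, 1927, 1817, 1974 and 1621 in DSS and 1901, 1660.1 and 2628 in AOM+DSS. It fell in both comparisons in the authors' deposited tables, by 1.05 (adjusted p = 4e-05) and 0.88 (adjusted p = 0.00086). Hpgds, the sigma-class enzyme that makes prostaglandin D, also fell in both (-0.91, adjusted p = 0.0271, and -0.85, adjusted p = 0.0383, authors' deposited tables), although by limma its AOM+DSS adjusted p was 0.0524. Clic4, a chloride channel protein with a glutathione S-transferase fold, rose in both (0.68, adjusted p = 0.0374, and 1.11, adjusted p = 3.85e-05, authors' deposited tables). Gpx3, the secreted glutathione peroxidase, rose in AOM+DSS to 434, 496 and 434 normalized reads from 32.8, 161 and 42.4 (authors' deposited table, 2.53, adjusted p = 3.18e-11).

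**Figure D5:**
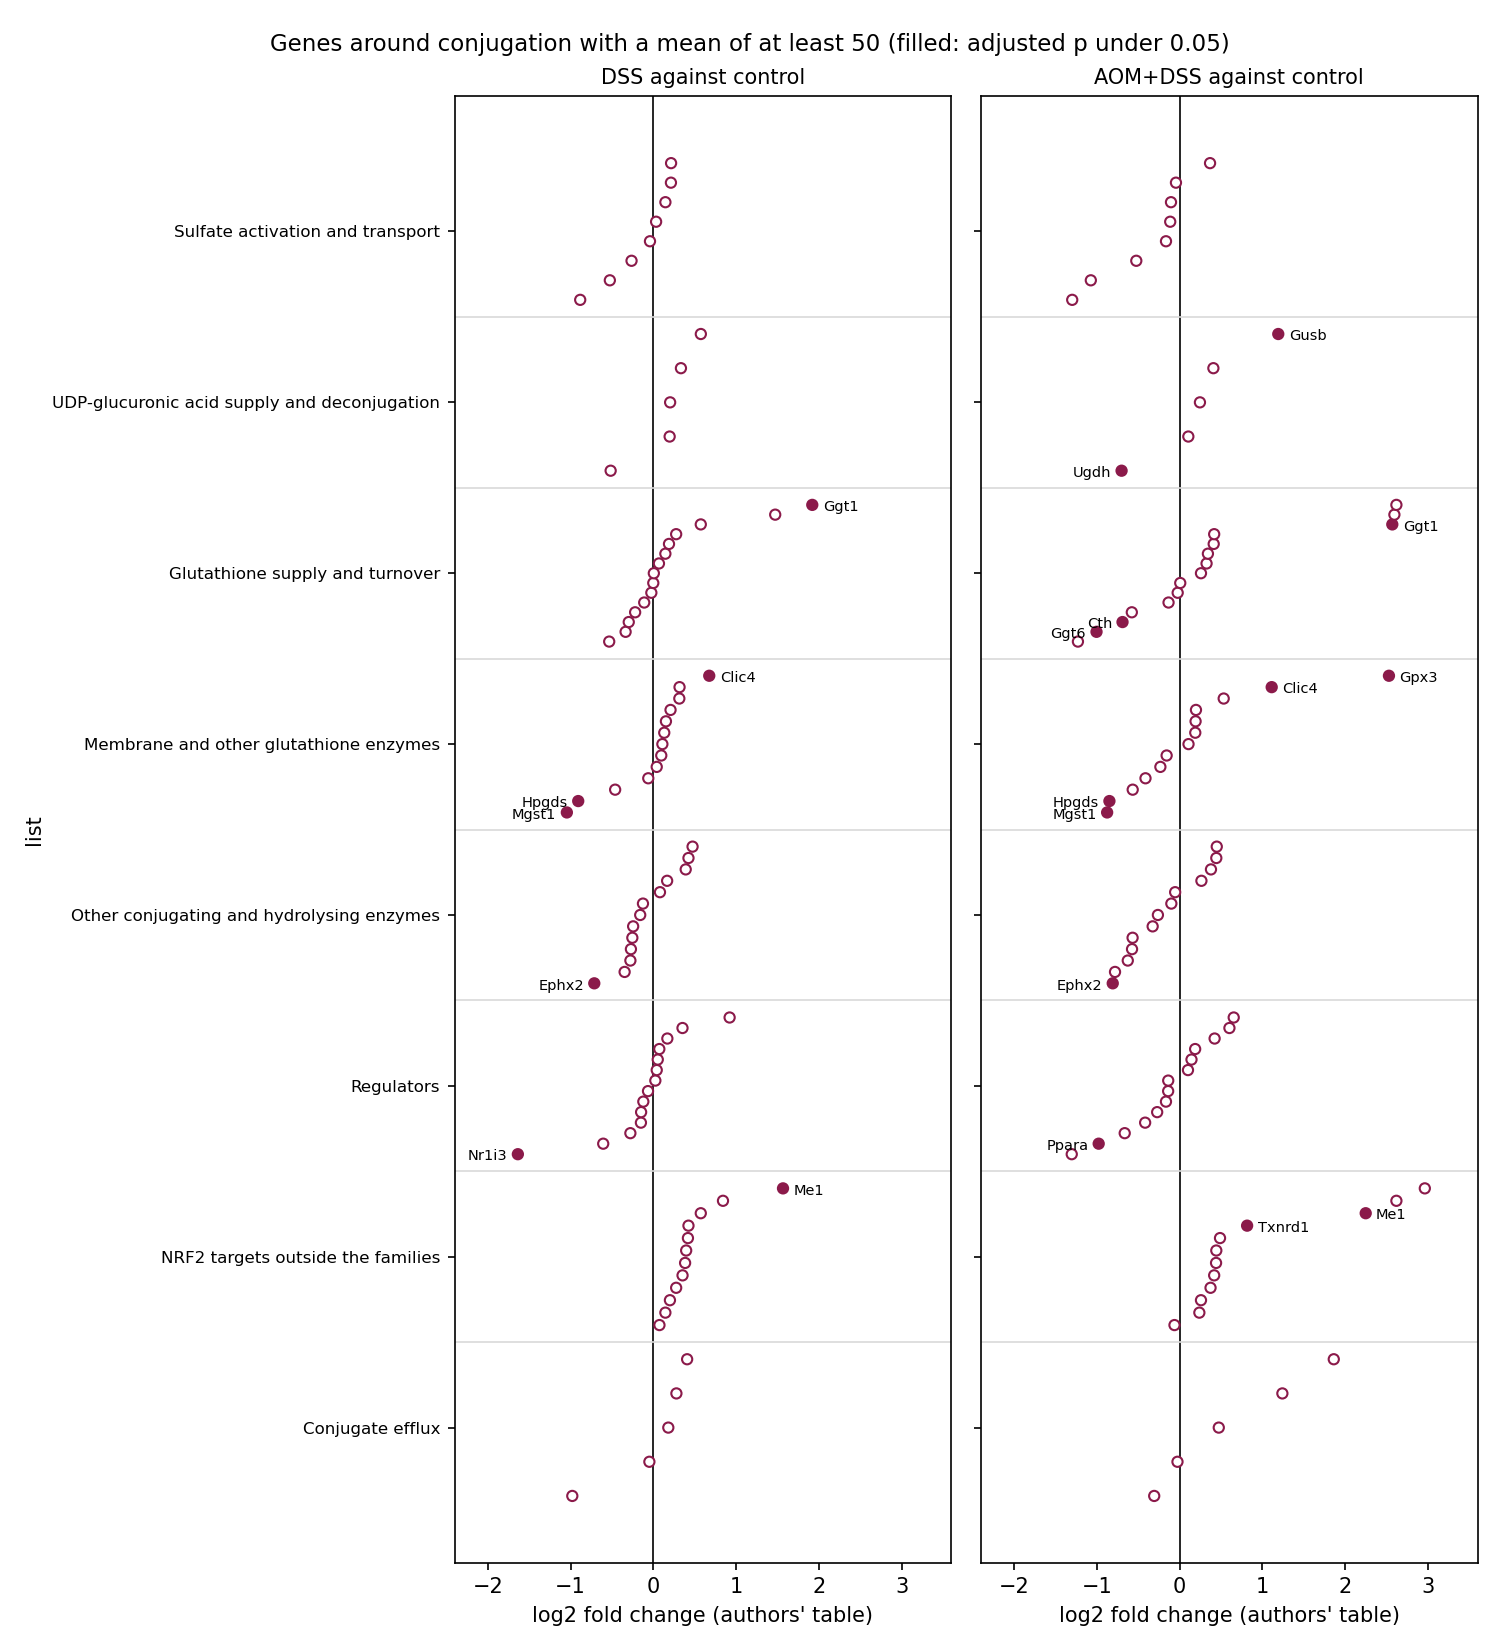
Log2 fold change from the authors' deposited tables (horizontal axis) of the genes around conjugation with a mean of at least 50 normalized reads, grouped by list, for DSS and for AOM+DSS against control. Filled, named points had an adjusted p under 0.05. Ggt1 and Clic4 stand right of 0 and Mgst1, Hpgds and Ephx2 left of 0 in both panels.

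The remaining lists held few calls. Of 16 other conjugating and hydrolysing enzymes, Ephx2, the soluble epoxide hydrolase, was the only one called, lower in both (-0.71, adjusted p = 0.0302, and -0.81, adjusted p = 0.02, authors' deposited tables). Of 14 regulators, Nr1i3, which encodes the receptor CAR, was lower in DSS (-1.64, adjusted p = 0.00924, authors' deposited table). It had 148, 182 and 78.4 normalized reads in the control and 48.2, 35.4, 52.4 and 38.8 in DSS. In AOM+DSS Nr1i3 had 37.2, 62.9 and 65.2, below every control library. It did not pass there (-1.30, adjusted p = 0.0531, authors' deposited table). Ppara was lower in AOM+DSS (-0.98, adjusted p = 0.00934, authors' deposited table) and did not pass in DSS (-0.61, adjusted p = 0.331, same source). Of 12 NRF2 targets outside the families, Me1, the malic enzyme, rose in both (1.57, adjusted p = 0.0479, and 2.25, adjusted p = 0.000278, authors' deposited tables), from control libraries of 22.2, 312 and 67.8 normalized reads. By limma, Me1 did not pass in DSS (adjusted p = 0.104). Txnrd1, thioredoxin reductase, rose in AOM+DSS (0.82, adjusted p = 0.03, authors' deposited table). None of the 5 efflux pumps passed the authors' test, and the most abundant were Abcc3 (7291, 7053 and 5893) and Abcg2 (1584, 2102 and 1556 in the authors' deposited tables). Limma also called list genes in AOM+DSS that the authors' test did not. Higher were Hmox1 (limma adjusted p = 0.017), Slc7a11 (0.0221), Mafg (0.0332) and the pump Abcc4 (0.0352). Lower were Slc26a2 (limma adjusted p = 0.0263), Ces2c (0.0365) and Cbs (0.0415).

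Markers of cell types also differed between these libraries. Of the 7 absorptive colonocyte markers 1, Slc20a1, fell in each comparison, with authors' means of 19124, 3622 and 3178 in control, DSS and AOM+DSS. The summed authors' means of the 7 were 102345 in the control, 80037 in DSS and 50783 in AOM+DSS. Their median log2 fold change was -0.01 in DSS and -0.83 in AOM+DSS, so the DSS sum leans on Slc20a1. The 5 stem and progenitor markers summed to 2664 to 3658 normalized reads in the control, 1567 to 2187 in DSS, and 6160.0, 7924 and 2834 in AOM+DSS a, b and c, with 0 of 5 called. The 6 myeloid markers summed to 98.5 to 1175 in the control and 2111, 5025, 338 and 375 in DSS a to d. The sums of DSS a and b were thus above those of c and d. In AOM+DSS a, b and c the myeloid sums were 5083, 13367 and 3807, and 2 markers rose in DSS and 3 in AOM+DSS. AOM+DSS b, the lowest library for 23 of the 28 members, thus had the highest stem and myeloid sums of its group. The 6 B and plasma cell markers summed to 131 to 3042 in the control and 12641, 6043, 2069 and 2614 in DSS a to d. In AOM+DSS a to c they summed to 2049, 1389 and 5283. The 5 T cell markers summed to 69.9 to 435 in the control and 2580.0, 418, 276 and 389 in DSS a to d. In AOM+DSS a to c they summed to 322, 431 and 592. None of these lymphocyte markers passed, and DSS a, highest in both sums, was the lowest DSS library for 15 of the 28 members. In AOM+DSS both sums were highest in c, the highest library of its group for 20 of the 28 members. Control b had the highest myeloid, B cell and T cell sums of its group. It was the lowest control library for 10 members and the highest for 9. Smooth muscle markers reached 11938 in AOM+DSS c against 260.3 and 200.2 in a and b, with 0 of 6 called. Of 7 fibroblast and matrix markers Pdgfrb fell in both comparisons (-1.10, adjusted p = 0.00619, and -1.33, adjusted p = 0.000283, authors' deposited tables). The median log2 fold change of these 7 was -1.67 in DSS but 1.08 in AOM+DSS. They summed to 395 to 1668 in the control, 249 to 396 in DSS, and 599, 300 and 3033 in AOM+DSS a, b and c. Of 7 goblet markers Clca3 fell in AOM+DSS (-0.91, adjusted p = 0.0119, authors' deposited table). The 4 endothelial markers summed to 452 to 688, 275 to 620.5 and 233 to 621 in control, DSS and AOM+DSS, with 0 of 4 called. The part of these cell types in the members' differences was not tested. No marker of those lists was at 0 in any group mean. As conjugating enzymes are abundant in liver, hepatocyte markers were read as well: Alb means were 67.0, 38.4 and 143 and Apoa1 means 2.63, 1.35 and 3.95 normalized reads in the authors' deposited tables, and Serpina1a was at 0 in DSS. Ttr, the most abundant of the 4, had means of 1570.3, 1173 and 694 and fell in AOM+DSS (-1.18, adjusted p = 0.00719, authors' deposited tables).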

How the data were processed

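Poly(A) RNA of distal colon crypts was sequenced in 3 control, 4 DSS and 3 AOM+DSS libraries, from a kit that does not mark strand, per the labels' protocols. Reads were mapped to mm9 with TopHat2 2.0 and groups were compared with DESeq, whose version is not given, per the submitters' processing notes. The sources used here do not give the counter, annotation or strand setting. Each signal column is a mean of size-factor-normalized read counts over libraries, per the file headers. The fold columns are the ratio of the treated to the control mean, and the log2 columns its logarithm, per the file headers. The p-values are the authors' DESeq values with Benjamini-Hochberg adjustment, per the file headers. The AOM+DSS header names 4 replicates where the labels list 3 libraries, and the deposited means were solved by whole reads of 3.

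From these means, printed to 15 digits, the whole reads of each library were solved for. DSS means that allowed several combinations were settled by the combination that gives both printed p-values, to a relative tolerance of 1e-06. This gave 23003 genes in all groups, 20415 from the means alone, and 84.5%, 71.8% and 87.1% of the mean total in control, DSS and AOM+DSS. All 59 members were recovered, 8 of them (Gstm1, Gsto1, Gstp1, Gstp2, Sult1a1, Sult1b1, Sult1d1 and Ugt2b34) through the p-values in DSS. Size factors ran from 0.645 (DSS d) to 1.34 (AOM+DSS a). The recovery and the limma step were tested on simulated data. The DSS and AOM+DSS comparisons used the authors' adjusted p under 0.05, and AOM+DSS against DSS used limma 3.58.1 (R 4.3.3) with a trend on log2(normalized reads + 1), adjusted over all genes. Other steps used Python 3.11.15, numpy 2.4.6, scipy 1.17.1 and pandas 2.3.3. A fold change on that scale understates the change of low genes.

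The members and lists were chosen with earlier results of these data known. For that reason a planned exact permutation test of the family sums is not given. Every member called in a comparison is described with each library, other members with a mean of at least 50 by their group means, and up to 3 called genes per list and comparison, by smallest adjusted p, or the 2 most abundant where none was called, are named. Gstm4, Gsta4, Gsto2 and Sult4a1 and the library values of Sult2b1, Ugt1a7c and Ugt1a1 go beyond this and were picked with their values known. The same holds for the library comparisons of Gsto1, Gstp1 and Gstp2. The list genes named for a limma call alone also go beyond this rule. Alternatives were limma in place of the authors' test, 5 in place of 1 added, a mean of at least 10, a threshold of 0.01, quantile normalization (AOM+DSS against DSS only), each library left out, and, added after the data were seen, the authors' test recomputed and the DSS pairs taken apart. Exon lengths and shared transcript words came from the GENCODE annotation supplied, and promoters from RefSeq, which held 51 of the 59 members. Protein sequences were not used here.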

Additional observations from a re-analysis of the deposited data

Results flagged for a closer look

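The 4 DSS libraries of each of the 28 expressed members were tested for a single library that stands apart from the rest of its group by Dixon's ratio, the gap to the nearest library over the range of the group. Chance alone marks about 1 group in 20. Sult1c2 stood at 583 normalized reads in DSS library b, above 429, 446 and 436 in a, c and d, with a ratio of 0.891. This library is the one nearest to the control, so the fall of Sult1c2 in DSS does not rest on it. Sult1d1 stood at 2621 normalized reads in DSS library a, above 2319, 2284 and 2294 in b, c and d, with a ratio of 0.898. Sult1d1 did not pass the test in DSS with or without that library. The control and AOM+DSS groups, with 3 libraries each, were too small for this test.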

How the results depend on the processing

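No paired analysis was possible because the recovered libraries cannot be tied to the replicate numbers in the labels. Of 158 alternative values of the 19 called fold changes, 158 kept their direction and 0 reversed, and 30 values with a library left out no longer passed. Each called member had every treated library below every control library. Leaving libraries out could therefore not reverse a direction, and the kept directions are no sign of robustness. The DSS count of 6 became 10 with limma, also 10 with 5 added, 5 with DSS libraries a and b only and 2 with c and d only, and ran from 4 to 6 with single libraries left out in the recomputed test. The 10 limma calls in DSS became 2 without control a or without control c, with 9 as the highest count. The AOM+DSS count of 13 ran from 7 (without library b) to 13. Limma and limma with 5 added each gave 1 higher member in AOM+DSS, Sult4a1, where the authors' test gave 0. The 11 limma calls ran from 1 (without control a or c) over 2 (without AOM+DSS a) to 18 (without AOM+DSS c). Between the treated groups, 0 calls became 2 with the recomputed test (Gstm3 and Gsta4) and 2 with DSS c and d only (Gstt2 and Sult2b1). The Sult sum in DSS moved from -0.37 to -0.63 (log2) without Sult1b1, its most abundant gene in DSS, which was not lower there. In the control Sult1a1 had the higher mean (4341 against 3937 normalized reads). Fewer libraries leave fewer degrees of freedom; any other cause of these shifts was not tested. The adjusted p under 0.01 and a mean of at least 10 moved none of the 3 comparisons' counts by more than 1.5 times. Quantile normalization was run only between the treated groups, where the count of 0 remained 0. Limits are the 3 libraries in 2 of the groups, the reading of members with a mean under 50, where few reads decide a value, and reads shared by near-copies.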

Other observations

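In the DSS group, libraries c and d both lay above a and b for 15 of the 28 members with a mean of 50 or more (53.6%) and both below for 5 (17.9%), beside 34.7% and 37.9% of the 11541 genes at or above that same mean. Whether the members differ from other genes in this was not tested. Sult2b1 was at 509 and 599 normalized reads in a and b and at 1429 and 1456 in c and d, while Ugt1a7c was at 1658 and 1813 against 937 and 1045. The labels name no batch among the DSS libraries.

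Gsto2, an omega enzyme at the edge of detection here, had 52.1, 18.8 and 41.3 normalized reads in the control, 6.32, 9.06, 17.0 and 4.65 in DSS and a mean of 14.8 ± 5.45 (SD, n = 3) in AOM+DSS. Every DSS library lay below every control library, and the authors' deposited table gives adjusted p-values of 0.137 and 0.398.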
